A study of Homo sapiens with 3 samples.

Results

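Blood vessel organoids in which NEUROD1 had been induced for 15 days were compared with organoids that received no induction, at day 45 of culture. Single-cell RNA counts were used, mostly summed over cells. The comparison rests on 14006 cell barcodes, 5183 from the induced and 8823 from the uninduced library, out of 26959 barcodes in the 3 libraries of the study. A barcode was kept when it held at least 1000 unique molecular identifiers (UMIs, each standing for 1 captured transcript), 500 or more genes and no more than 20% mitochondrial UMIs, and when ALB, AFP, APOA1, APOA2 and TTR together made up under 1% of its UMIs. The last condition sets aside liver-like cells. The organoids were grown from the human embryonic stem cell line H1, into which a NEUROD1-P2A-GFP cassette switched on by doxycycline had been inserted with a PiggyBac transposon. Uninduced organoids carried the same cassette and got no doxycycline. Induced ones were given 1 µg/ml for 15 days, and a library with 45 days of induction is quoted beside them as values alone, since it would be set against the same uninduced library. From day 15 the medium of all groups also held the neurotrophins BDNF and NT-3, on which many neurons depend. Between 5 and 6 organoids were pooled per library and there was 1 library per group, so no test between groups is possible. Which 15 days were induced, and whether the line is a single clone, is not given in the sources used here.

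NEUROD1 is a basic helix-loop-helix transcription factor that binds E-box sequences and drives the differentiation of neurons and of pancreatic endocrine cells. Forced expression in pluripotent cells is used to make neurons. A blood vessel organoid is a self-organising culture in which endothelial tubes are wrapped by mural cells within a bed of mesenchyme, the connective-tissue cells that lay down collagen and other matrix. The comparison asks which cells and genes set the organoid with 15 days of NEUROD1 apart from one that never had it.

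The kept barcodes held 57564448 UMIs without induction and 45781614 at 15 days, with medians of 5311 and 7345 UMIs, 1865 and 2544 genes, and 4.64% and 3.83% mitochondrial UMIs per barcode. Genes are given as UMIs summed over cells and scaled to the library total (CPM, counts per 1000000 UMIs), with an exact Poisson 95% interval in parentheses. Folds are plain ratios of CPM with an exact conditional binomial 95% interval, shares carry an exact Clopper-Pearson 95% interval, and all 3 kinds of interval cover counting error only, not the spread between organoids or captures. Log2 ratios are of 15 days over no induction with 5 CPM added to both. Counts of genes past 2-fold or 4-fold use these ratios, so a gene of low level can have a larger plain fold and not be counted. A sum over cells cannot tell fewer cells of a type from less RNA per cell. The liver condition set aside 2.26% of otherwise passing barcodes at 15 days and 0.395% without induction. The barcodes nearest to its limit held 0.992% and 1.02% of such UMIs at 15 days, and 0.923% and 1.01% without induction. The 2 libraries shared 11 kept barcode sequences.

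NEUROD1 itself (ENSG00000162992) was counted 3 times without induction, 68 times after 15 and 2690 times after 45 days of induction. These are levels of 0.0521 CPM (0.0107 to 0.152), 1.49 CPM (1.15 to 1.88) and 42.7 CPM. The order of the 3 libraries follows their labels. Of the 68 UMIs at 15 days, 62 lay in cells that carried neuronal genes, where NEUROD1 reached 9.20 CPM at 15 days and 576 CPM at 45 days. Over all barcodes before filtering, however, the uninduced library held 77 UMIs and the 15-day library 73, so most of the former lay in barcodes that were not kept. Whether the cassette's own transcripts are counted under this gene was not tested.

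Over all kept cells, 9654 genes reached 10 CPM in at least 1 of the 2 libraries. Of these, 91 (0.943%) stood 4-fold or more above the uninduced level and 17 (0.176%) 4-fold or more below it. At 2-fold the counts were 395 (4.09%) and 106 (1.1%). Once the cells that carried neuronal genes, defined below, were left out, 16 genes were 4-fold or more above. The count of 91 ran from 34 after thinning to 184 with 1 CPM added in the other alternatives, and that of 17 from 13 to 35. The median log2 ratio of all 9654 genes was 0.20, and scaling by median of ratios in place of the UMI total shifts the scale of these ratios by -0.23, before the 5 CPM are added. Among the 25 highest genes were PRPH, NEFL, STMN4, INA, NEFM and DCX, which build the neuronal cytoskeleton, while COL15A1, DCN, OGN, LUM, COL1A1, COL14A1 and COL1A2, which encode collagens and matrix proteoglycans, were among the 25 lowest.

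**Figure D1:**
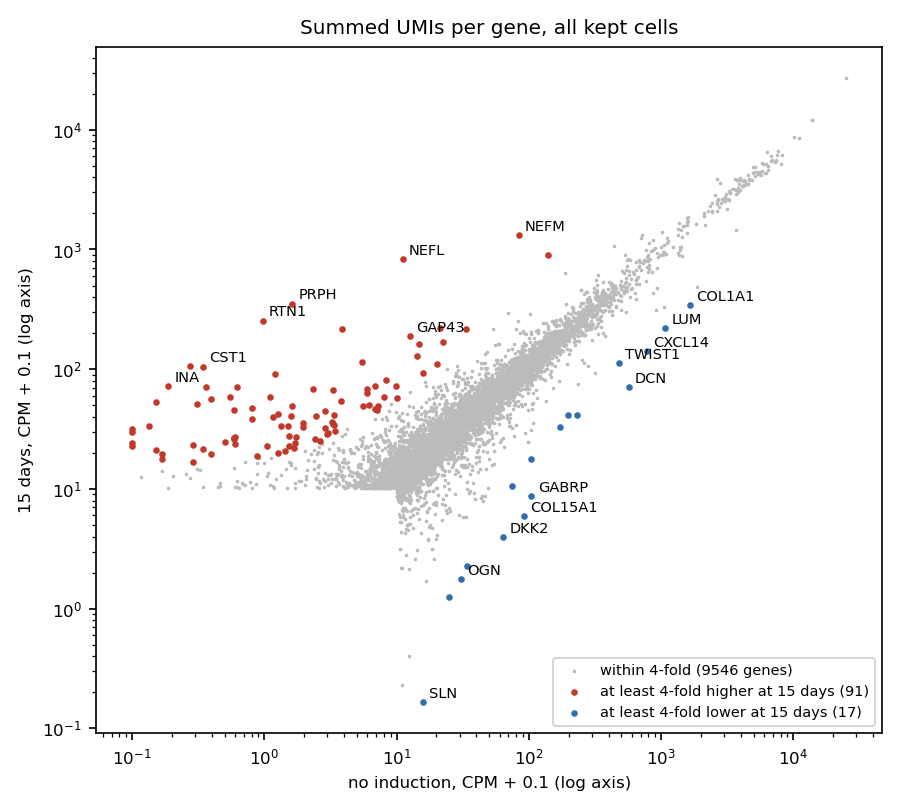
Each point is a gene at 10 CPM or more in at least 1 library, plotted by its CPM over all kept cells without induction (x axis) and at 15 days (y axis), both with 0.1 added and on log axes. The 91 genes at least 4-fold higher lie mostly at the left, near 0 without induction, and the 17 lower genes include abundant matrix genes such as COL1A1 and LUM.

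The genes that give a neuron its shape stood highest. PRPH encodes peripherin, an intermediate filament of peripheral neurons, and was at 1.53 (1.23 to 1.88) CPM without induction, against 353 (347 to 358) CPM at 15 days and 109 at 45 days. The neurofilament light chain NEFL was at 11.0 (10.2 to 11.9), 832 (824 to 841) and 312 CPM in that order. Its partner NEFM was already at 83.7 (81.3 to 86.1) CPM without induction and reached 1316 (1305 to 1326) CPM at 15 days and 459 at 45 days. INA, or alpha-internexin, went from 0.0869 (0.0282 to 0.203) CPM in the uninduced to 71.7 (69.3 to 74.2) CPM in the 15-day library and 35.1 at 45 days. In all 4 of these filament genes the 3 libraries kept the same order, lowest without induction and highest at 15 days, and no intervals overlapped. The microtubule-binding DCX had 5.35 CPM without induction and 115 CPM at 15 days, a fold of 21.5 (19.2 to 24.2). Of the 21 genes in a list of neuronal cytoskeleton genes, 19 were at the 10 CPM floor, and 18 of these were at least 2-fold higher and 0 lower, with a median log2 ratio of 2.53. NEFH, the heavy neurofilament, was the one below 2-fold on the log2 scale, at 7.30 and 15.7 CPM.

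The promoters of PRPH, RTN1 and INA are shown because these are among the 8 highest genes and their promoters in the RefSeq table held an E-box, CANNTG, the word that NEUROD1 and related factors bind. RTN1 encodes a reticulon of the endoplasmic reticulum in neurons. Each line gives the 250 bases before the RefSeq start (GRCh38.p14), 5′ to 3′ on the strand of the gene, with every CANNTG in capitals.
PRPH, chr12:49294897-49295146, plus strand: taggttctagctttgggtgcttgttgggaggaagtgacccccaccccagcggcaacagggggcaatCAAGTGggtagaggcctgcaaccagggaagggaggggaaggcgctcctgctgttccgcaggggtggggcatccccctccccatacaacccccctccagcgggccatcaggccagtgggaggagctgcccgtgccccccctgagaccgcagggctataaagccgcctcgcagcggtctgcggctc
RTN1, chr14:59610140-59610389, minus strand: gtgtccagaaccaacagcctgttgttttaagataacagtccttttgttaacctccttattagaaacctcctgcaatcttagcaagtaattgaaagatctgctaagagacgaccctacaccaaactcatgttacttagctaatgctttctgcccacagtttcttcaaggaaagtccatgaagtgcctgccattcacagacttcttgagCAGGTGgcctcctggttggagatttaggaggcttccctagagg
INA, chr10:103276888-103277137, plus strand: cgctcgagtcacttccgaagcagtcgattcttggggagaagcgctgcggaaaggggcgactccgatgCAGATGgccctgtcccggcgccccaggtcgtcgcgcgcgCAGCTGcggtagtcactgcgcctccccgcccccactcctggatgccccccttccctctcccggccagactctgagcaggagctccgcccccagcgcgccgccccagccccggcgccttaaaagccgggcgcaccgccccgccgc
The RTN1 entry is the first of 3 RefSeq promoters of that gene. Of 27305 genes with a promoter of that length, 62.2% held CANNTG and 12.2% held CAGATG or its reverse complement CATCTG, a form contained in CANNTG. Among the 25 highest genes 19 had a promoter in the table, of which 13 (68.4%) held CANNTG and 3 (15.8%) the narrower word. Among the 25 lowest, 12 had one, of which 4 (33.3%) and 1 (8.33%) did. A word in such a window is a description of sequence and not a site of binding.

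Genes of axon growth and guidance followed. Of 25 listed, 20 were at the floor, 9 were at least 2-fold higher and 0 lower, and the median log2 ratio was 0.79. RTN1 stood at 0.869 (0.645 to 1.15) CPM without induction, against 255 (250.1 to 259) CPM at 15 days and 92.6 at 45 days. NRN1 encodes neuritin, which promotes the outgrowth of neurites, and was at 3.77 (3.28 to 4.31), 215 (210.3 to 219) and 60.8 CPM. GAP43, a protein of growth cones, was at 12.4 CPM without induction and 190.0 CPM at 15 days, and OLFM1, a secreted olfactomedin of neurons, at 1.11 and 91.7 CPM. Guidance receptors of the same list that mesenchyme also carries lay near a ratio of 1: ROBO1 had 48.7 and 50.7 CPM, and ROBO2 had 25.4 and 21.0 CPM.

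The machinery of transmitter release was higher at 15 days in 9 of the 13 listed genes at the floor, by at least 2-fold, with 0 lower and a median log2 ratio of 2.01. SNAP25, a SNARE protein of the plasma membrane, was at 5.87 (5.26 to 6.53) CPM without induction, against 68.5 (66.1 to 70.9) CPM at 15 days and 26.3 at 45 days. The vesicle GTPase RAB3A was at 8.15 and 81.2 CPM, and synaptophysin, SYP, at 2.35 and 40.4 CPM. Neuropeptides and secretory granule genes gave 10 of 11 at least 2-fold higher. SCG3, a granin-binding protein, stood at 0.295 CPM without induction, against 56.5 CPM at 15 days and 24.6 at 45 days. SCG5, a chaperone of prohormone convertase, was at 3.21, 67.0 and 25.6 CPM. SCGN, a calcium-binding protein of endocrine and neuronal cells, was at 0.208 (0.108 to 0.364), 50.8 (48.7 to 52.9) and 2.32 CPM, and 5 cells held 32.3% of its UMIs at 15 days.

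Transmitter genes were mostly below the floor: 6 of 22 listed reached it, of which 3 were at least 2-fold higher. The vesicular glutamate transporter SLC17A6 had 0 UMIs without induction and 23.9 (22.5 to 25.4) CPM at 15 days, at least 459-fold higher when the uninduced sum is set at 3 UMIs. SLC17A7, a related transporter, had 0.678 and 11.4 CPM. The glutamate receptor subunit GRIA2 went the other way, at 27.8 and 14.4 CPM. Of 8 voltage-gated channel genes at the floor, 4 were at least 2-fold higher. SCN9A, the sodium channel of sensory and sympathetic neurons, had 7.12 CPM without induction and 49.4 CPM at 15 days. The sodium channel subunit SCN3B had 1.95 and 20.7 CPM.

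Transcription factors gave smaller numbers. Of 20 proneural and early neuronal factors 5 reached the floor, and EBF3 alone was at least 2-fold higher, at 8.56 and 25.4 CPM. SOX4 and SOX11, which many embryonic cells express, were at 678 and 809 CPM and at 197 and 188 CPM. Among 10 neuronal identity factors at the floor 4 were at least 2-fold higher. POU4F1, a factor of sensory neurons, had 1 UMI without induction and 12.4 (11.4 to 13.5) CPM at 15 days, and ONECUT2 had 0.938 and 22.7 CPM. In the cells that carried neuronal genes POU4F1 stood at 80.8 CPM and ONECUT2 at 101 CPM, and ONECUT2 was also at 68.5 CPM in those that carried epithelial genes. Among receptors for neurotrophins and GDNF factors, RET was at 1.48 and 15.6 CPM, while GFRA1 was lower at 15 days, at 17.8 and 4.91 CPM, and so was the ligand gene NTF3 at 19.4 and 6.05 CPM. In all, 2 of the 10 genes of that list at the floor were at least 2-fold higher and 2 lower.

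**Figure D2:**
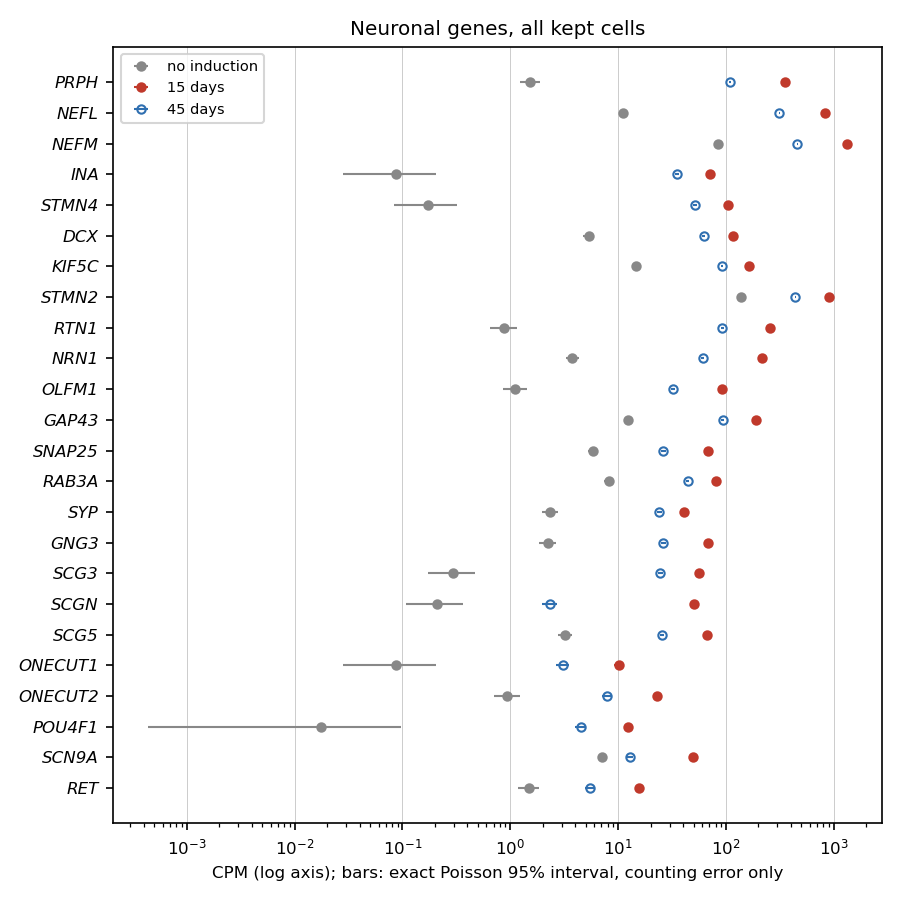
Neuronal genes by library: the x axis is CPM over all kept cells on a log axis, filled points are no induction (grey) and 15 days (red), open blue points are 45 days, and bars are exact Poisson 95% intervals. For every gene drawn the 15-day point lies to the right of the other 2 libraries.

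To see which cells carried these transcripts, barcodes were marked by gene sets. A barcode was neuron-marked where 12 neuronal genes (STMN2, STMN4, DCX, INA, RTN1, NEFL, PRPH, GAP43, ELAVL4, ELAVL3, SCG3 and SNAP25) made up at least 0.2% of its UMIs and at least 3 of them had a UMI. The same rule with sets of 12 endothelial genes (PECAM1, CDH5 and others), 10 epithelial genes (EPCAM, CDH1 and others) and 10 macrophage genes (C1QA, PTPRC and others) gave the other marked cells, and barcodes that met none are called the remaining cells. These are ranges of a score and not cell types. Neuron-marked barcodes were 458 of 5183 (8.84%, 8.08 to 9.64) at 15 days and 12 of 8823 (0.136%, 0.0703 to 0.237) without induction, beside 3.95% at 45 days. At 15 days 143 of the 458 lay below 0.4%, and another 500 barcodes lay between 0.1% and 0.2%. With every cell thinned to 2000 UMIs the neuron-marked share was 5.99% at 15 days and 0 of 8493 cells without induction. At 15 days the neuron-marked cells had a median of 8388.5 UMIs and held 14.7% of the library's UMIs, and their median share of UMIs from the 12 genes was 1.35%, against 0.0268% in the remaining cells of that library.

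These cells held most UMIs of the leading neuronal genes. At 15 days they gave 95.5% of the UMIs of PRPH, 95.6% of NEFL, 95.8% of RTN1 and 97.7% of SCG3, all of which chose the cells. Among genes that did not, the share was 93.5% for NRN1, 95.8% for PPP1R1A, an inhibitor of protein phosphatase, and 97.2% for CRTAC1, a secreted matrix protein. It was lower for SNCG, gamma-synuclein, at 81.3%. KIF5C, a motor of axonal transport, differed: its level was 14.7 (13.7 to 15.7) CPM without induction and 164 (160.0 to 167) CPM at 15 days, 54.7% of the latter came from neuron-marked and 43.0% from remaining cells, and in the remaining cells alone it stood at 17.2 (16.0 to 18.4) and 104 (100.2 to 107) CPM. Endothelial-marked cells of the same library had KIF5C at 15.3 CPM.

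Neuronal RNA was also counted in cells of other kinds. In endothelial-marked cells NEFL was at 2.51 (1.25 to 4.50) CPM without induction and 39.1 (32.8 to 46.2) CPM at 15 days, and 0.414% and 7.02% of those cells had a NEFL UMI after thinning to 2000 UMIs (0.575% and 26.0% unthinned). Median depths of the endothelial-marked cells were 7355 and 8711 UMIs. In the remaining cells the thinned share was 2.29% and 8.92%, against 4.65% and 26.5% unthinned. For KIF5C the thinned share at 15 days was 15.1% of remaining and 2.63% of endothelial-marked cells. In the remaining cells the neuronal cytoskeleton list had 12 members at 20 CPM, the floor used within marked sets, of which 3 were at least 2-fold higher, and its median log2 ratio was 0.56, beside 0.17 for all 6243 genes there. The choice of the remaining cells by neuronal genes bounds that value.

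The remaining cells, 7721 without induction (87.5%) and 3912 at 15 days (75.5%), had median depths of 5156 and 7193 UMIs. Their median share of UMIs from the 12 neuronal genes was 0 without induction and 0.0268% at 15 days, and from the 12 endothelial genes 0.0225% and 0.0373%. The part of these and of depth in the results below was not tested. Of the 6243 genes at the floor there, 21 (0.336%) were at least 4-fold lower at 15 days and 8 (0.128%) at least 4-fold higher, and at 2-fold the counts were 93 (1.49%) and 132 (2.11%). Over the alternatives the 4-fold counts ran from 14 to 30 lower and from 4 to 19 higher. The lowest ratio was that of COL15A1, the multiplexin collagen next to basement membranes, on chromosome 9 (98943179 to 99070792, GRCh38, plus strand). It stood at 101 (98.1 to 104) CPM without induction, against 1.42 (1.03 to 1.90) CPM at 15 days and 6.21 at 45 days, a fold of 71.2 (53 to 98.2) between the first 2. In endothelial-marked cells the same gene was at 77.9 CPM (69.9 to 86.6) without induction and 59.5 CPM (51.7 to 68.1) at 15 days, so that these cells held 6.50% of its UMIs in the first library and 79.2% in the second.

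Collagens of connective tissue leaned lower. The list holds fibrillar and type VI collagens together with COL9A3, COL12A1, COL14A1 and COL15A1, which do not form fibrils by themselves. Of 13 members at the floor in the remaining cells, 6 were at least 2-fold lower and 0 higher, with a median log2 ratio of -0.94. The 6 lower ones were the fibrillar genes COL1A1, COL1A2, COL3A1 and COL5A1 and the non-fibrillar COL14A1 and COL15A1. COL1A1, a chain of type I collagen, stood at 1939 (1927 to 1952) CPM without induction, against 456 (448 to 463) CPM at 15 days and 499 at 45 days. Its partner COL1A2 was at 2118 (2104 to 2131), 654 (645 to 663) and 809 CPM, and COL3A1, which forms type III collagen, at 4135 (4117 to 4153), 1955 (1939 to 1971) and 1632 CPM. In these 3 genes both induced libraries lay below the uninduced one and near each other. Type VI collagens differed less, with COL6A2 at 660.5 and 513 CPM. COL12A1 was on the other side of 1, at 18.5 and 23.6 CPM.

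Small leucine-rich proteoglycans, which decorate collagen fibrils, had the lowest median of the lists with 3 or more members at the floor, -2.11, with 4 of 6 members at least 2-fold lower in the remaining cells and 5 of 6 over all cells. Decorin, DCN, was at 639.6 (632 to 647) CPM without induction, against 90.3 (87.0 to 93.7) CPM at 15 days and 124 at 45 days. Lumican, LUM, its neighbour on chromosome 12, was at 1242 (1232 to 1252), 294 (288 to 299.9) and 289 CPM, and osteoglycin, OGN, at 36.2 (34.5 to 38.0), 2.45 (1.93 to 3.06) and 8.45 CPM. The other two members at the floor were asporin, ASPN, at 57.4 and 28.8 CPM, and biglycan, BGN, at 163 and 209 CPM, the higher level at 15 days.

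Other matrix genes were mixed. Basement membrane genes gave 0 of 13 at least 2-fold apart in either direction in the remaining cells and a median of 0.07, or -0.11 with median-of-ratios scaling, with COL4A1 at 242 and 175 CPM and SPARC, a collagen-binding glycoprotein, at 942 and 479 CPM. Of 17 genes for elastic fibres and crosslinking 3 were at least 2-fold lower, among them LOX, a crosslinking oxidase, at 42.6 and 13.9 CPM, and LTBP1, which stores latent TGF-beta, at 82.6 and 26.7 CPM. Elastin itself, ELN, was at 15.8 and 31.1 CPM. Among proteases, their inhibitors and matricellular proteins 3 of 18 were at least 2-fold lower and 2 higher. POSTN, periostin, was at 369 (363 to 374) and 126 (122 to 129.6) CPM, whereas TIMP3 was at 102 (98.9 to 105) and 258 (252 to 263) CPM.

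Counted per cell, the collagen difference was present at the median of the remaining cells. After thinning to 2000 UMIs, which kept 7454 cells without induction and 3779 at 15 days, COL1A1, COL1A2 and COL3A1 together gave a median of 8 UMIs per cell without induction (middle 50% of cells 5 to 14) and 5 at 15 days (3 to 8). The means were 12.9 and 6.25, and 1.18% and 5.08% of cells had 0. DCN and LUM together had 0 UMIs in 30.0% of cells without induction and 69.1% at 15 days. The gene sets of this paragraph were picked after their summed values were seen.

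**Figure D3:**
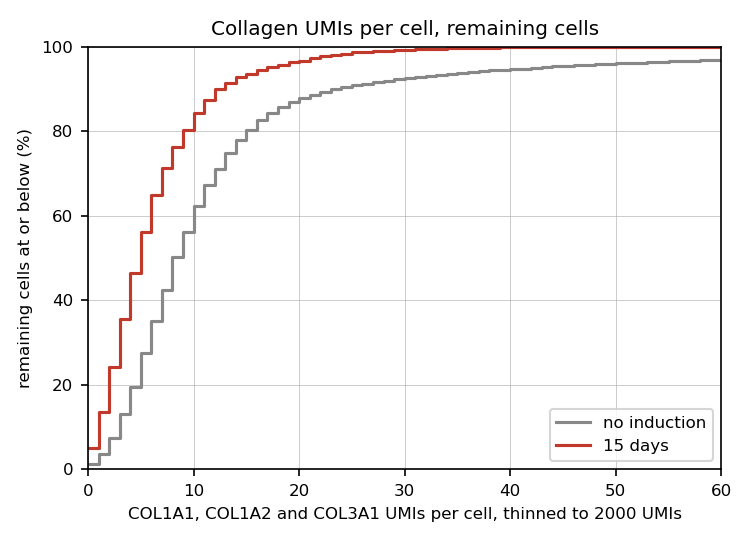
Cumulative share of remaining cells (y axis, %) with up to a given number of COL1A1, COL1A2 and COL3A1 UMIs (x axis, drawn to 60) after each cell was thinned to 2000 UMIs. The 15-day curve lies above the uninduced one at all UMI numbers drawn, with medians of 5 and 8.

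Contractile genes of smooth muscle leaned the same way. Over all cells 3 of 10 at the floor were at least 2-fold lower and 0 higher, with a median of -0.41, and in the remaining cells 2 of 9 were lower, with a median of -0.33. Their summed level was 2604 and 1574 CPM over all cells, and 2393 and 1805 CPM in the remaining cells. After thinning, 18.8% of epithelial-marked cells without induction and 6.37% at 15 days had a TAGLN UMI. Over all cells TAGLN, a calponin-like actin binder, was at 172 (168 to 175) CPM without induction, against 32.8 (31.1 to 34.5) CPM at 15 days and 38.2 at 45 days. TPM1 was at 922 and 311 CPM and MYL9, a regulatory myosin chain, at 106 and 46.7 CPM. Of 15 pericyte genes at the floor over all cells 1 was at least 2-fold higher and 1 lower, with a median of 0.23, close to the 0.20 of all genes. Of the 15 in the remaining cells 3 were higher and 1 lower, with a median of 0.56. In the remaining cells the angiopoietin ANGPT1, which mural cells send to endothelium, was at 42.8 (41.0 to 44.7) and 118 (114 to 122) CPM. The potassium channel KCNJ8 was at 28.0 and 71.6 CPM there, and MCAM at 61.7 and 136 CPM. PDGFC was the lower one, at 50.3 and 21.0 CPM.

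Transcription factors that pattern limb and face mesenchyme were mixed, and most were less than 2-fold apart. Of 25 at the floor over all cells 5 were at least 2-fold higher, 6 lower and 14 neither, with a median of -0.14. In the remaining cells 5 of 21 were higher, 4 lower and 12 neither, with a median of 0.07. PITX1, a factor of the hindlimb and first pharyngeal arch, was at 273 (268 to 278) CPM without induction, against 52.8 (50.2 to 55.4) CPM at 15 days and 158 at 45 days in the remaining cells. TWIST1, of cranial and limb mesenchyme, was at 569.7 (563 to 577), 155 (151 to 159.8) and 372 CPM, and the zinc finger gene ZFHX4 at 232 (227 to 236), 51.8 (49.3 to 54.4) and 119 CPM. For all 3 the 15-day library was lowest and the 45-day library lay between the other 2. ZFHX4-AS1, whose gene lies opposite ZFHX4, was at 29.8 and 1.61 CPM, and since the strand setting of the counting is not given in the sources used here, its reads may not be separable from those of its partner.

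On the higher side, MEOX2, a homeobox factor of somite and vascular cells, was at 28.0 (26.5 to 29.5) CPM without induction, against 138 (133 to 142) CPM at 15 days and 151 at 45 days. FOXC1, a forkhead factor of mesenchyme and vessels, was at 8.31 (7.51 to 9.18), 49.4 (46.9 to 51.9) and 24.3 CPM, and DLX5, of pharyngeal arches and bone, at 5.75, 32.7 and 18.2 CPM. NR2F1, an orphan nuclear receptor, stood at 34.4, 139 and 72.7 CPM. Genes among the 15 highest that are not transcription factors included CLDN11, a tight junction claudin, at 14.9 (13.8 to 16.0), 86.0 (82.8 to 89.4) and 93.3 CPM, and THBS4, a thrombospondin of tendon and vessel wall, at 19.4 (18.2 to 20.7), 102 (98.6 to 106) and 114 CPM. MEOX2, CLDN11 and THBS4 were alike in both induced libraries. HOX genes give cells their place along the body axis. Over all cells 0 of 18 at the floor were at least 2-fold apart, beside 4.09% of all genes higher and 1.1% lower. HOXA5 was at 6.79 and 13.6 CPM and HOXC9 at 10.4 and 5.24 CPM. The HOX median was -0.01, and 0.20 when each cell weighed the same. In the remaining cells 0 of 8 were 2-fold apart, with a median of 0.47 beside 0.17 for all genes. Their summed level there was 358 CPM without induction and 524 CPM at 15 days.

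Per thinned cell, PITX1, TWIST1 and ZFHX4 together had 0 UMIs in 31.7% of remaining cells without induction and 66.0% at 15 days, while MEOX2, CLDN11 and THBS4 together had 0 in 90.4% and 64.0%. MEOX2 alone had a UMI in 5.07% and 19.7% of these cells (10.2% and 40.0% unthinned), and in 2.07% and 2.92% of endothelial-marked cells thinned alike. Within the 15-day library, 25.6% of cells with a MEOX2 UMI also had a CLDN11 UMI, against 10.8% of the others, and without induction the shares were 8.20% and 2.43%. PITX1 was found in 8.04% of MEOX2-positive and 8.01% of other cells at 15 days, and in 19.6% and 29% without induction. These sets and pairs were also picked after values were seen.

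**Figure D4:**
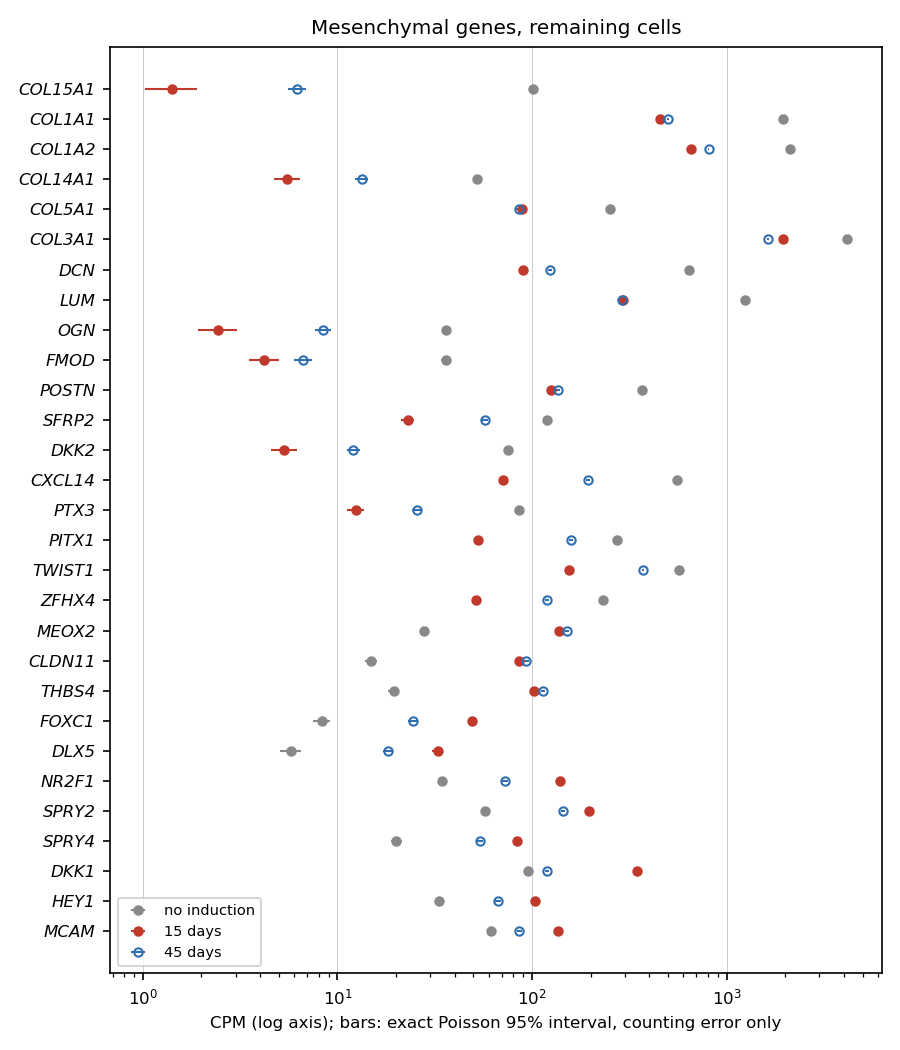
Matrix, signalling and transcription factor genes in the remaining cells: the x axis is CPM on a log axis, filled points are no induction (grey) and 15 days (red), open blue points 45 days, and bars exact Poisson 95% intervals. From COL15A1 to ZFHX4 the uninduced point is the rightmost, and from MEOX2 to MCAM it is the leftmost.

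Secreted WNT factors and WNT targets leaned lower over all cells, with 8 of 18 at the floor at least 2-fold lower, 2 higher and a median of -0.86. They were more mixed in the remaining cells, where 5 of 13 were at least 2-fold lower and 3 higher, with a median of -0.63. In the remaining cells the inhibitor DKK2 was at 75.4 (73.0 to 78.0) CPM without induction, against 5.31 (4.53 to 6.19) CPM at 15 days and 12.1 at 45 days, and SFRP2, a decoy for WNT ligands, at 119.7 (117 to 123), 22.9 (21.3 to 24.7) and 57.1 CPM. DKK1, a paralogous inhibitor, ran opposite at 95.3 (92.5 to 98.1), 346 (339 to 352) and 119 CPM, with the 45-day library near the uninduced one. APCDD1, a membrane-bound inhibitor, was at 92.8 and 29.4 CPM over all cells.

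Feedback genes of FGF and ERK signalling were higher. Of 12 at the floor in the remaining cells 5 were at least 2-fold higher and 1 lower, with a median log2 ratio of 0.93. SPRY4, an inhibitor induced by the pathway, was at 20.1 (18.8 to 21.4) CPM without induction, against 83.4 (80.2 to 86.7) CPM at 15 days and 53.8 at 45 days, and SPRY2 at 57.1 (55.0 to 59.3), 196 (191 to 201) and 144 CPM. The ERK-regulated factor ETV4 was at 14.4 and 47.2 CPM. FGFR2, a receptor, was the lower one at 29.6 and 7.82 CPM. BMP and TGF-beta genes were mixed: in the remaining cells 2 of 16 were at least 2-fold higher and 3 lower, with the BMP target ID3 at 781 and 1605 CPM, TGFB2 at 56.2 and 22.2 CPM and the BMP antagonist GREM1 at 28.0 and 8.98 CPM. Of 15 retinoid genes over all cells 2 were at least 2-fold higher, CYP26A1, which degrades retinoic acid, at 1.34 and 20.7 CPM and ALDH1A3, which makes it, at 3.07 and 13.3 CPM. The IGF list had 0 of 14 at least 2-fold apart over all cells, beside 4.09% of all genes higher and 1.1% lower.

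**Figure D5:**
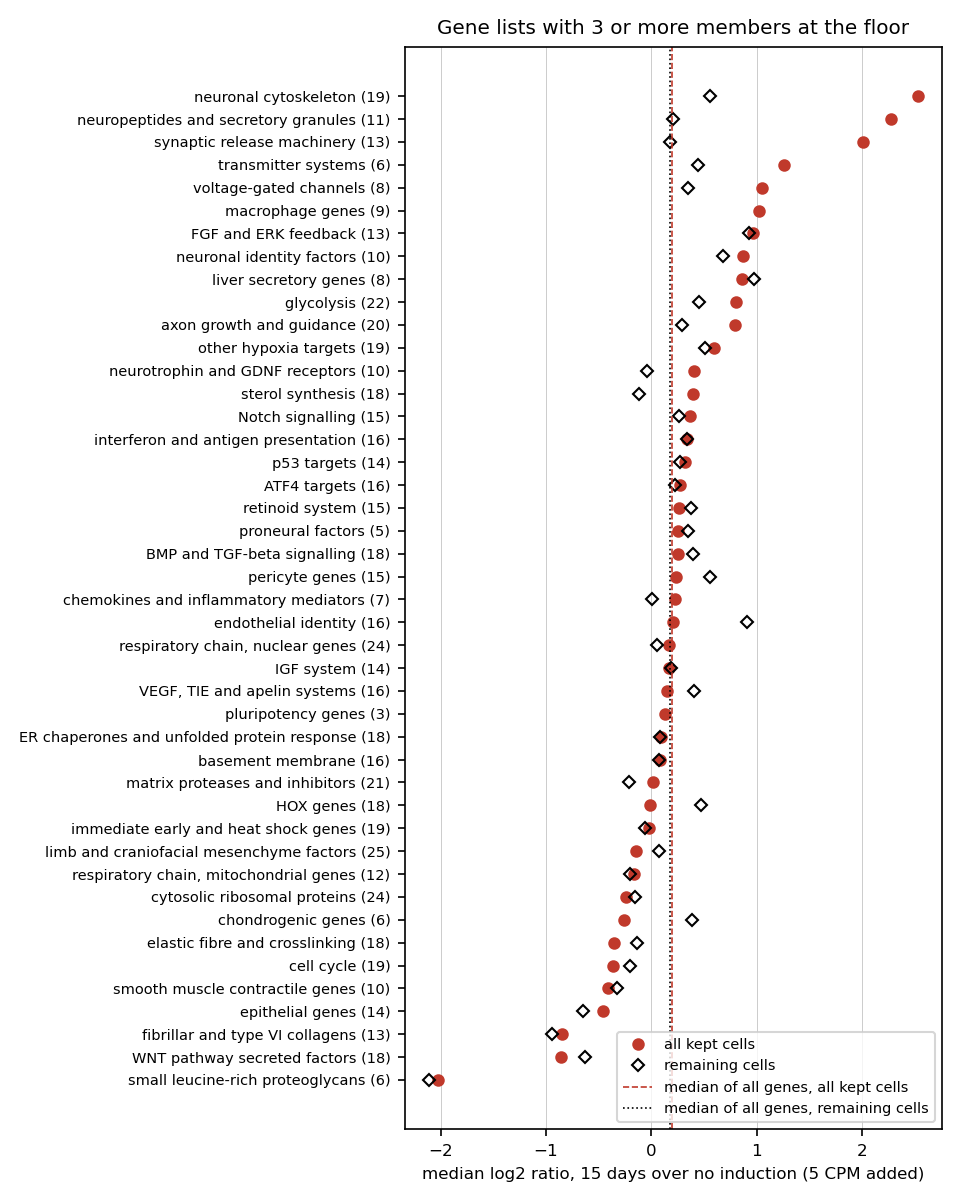
Median log2 ratio of 15 days over no induction (x axis) for each gene list with 3 or more members at the floor, over all kept cells (red circles) and in the remaining cells (open diamonds, where 3 or more members reached the floor there). Numbers in parentheses are members at the floor over all cells, and vertical lines are the medians of all genes. The cytoskeleton, secretory granule and synaptic release lists are highest over all cells and nearer to the line in the remaining cells, and small leucine-rich proteoglycans are lowest in both.

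Endothelial-marked barcodes were 7.12% (6.43 to 7.85, 369 cells) at 15 days and 5.92% (5.43 to 6.43, 522 cells) without induction. The intervals did not overlap, by a margin smaller than the digits printed. The 15-day share was the higher one in 7 of 7 alternative filters, score limits and a thinning, and without induction it ranged from 4.74% to 7.10%. Endothelial identity genes gave 1 of 16 at least 2-fold higher over all cells and 0 lower, beside 4.09% and 1.1% of all genes. The higher one was ENG, a TGF-beta co-receptor, at 48.4 and 102 CPM. Within endothelial-marked cells 0 of 8 identity genes were at least 2-fold apart, beside 0.675% of all genes higher and 0.52% lower there. In the remaining cells, which were chosen by low endothelial scores, 3 of 6 were at least 2-fold higher, with a median log2 ratio of 0.91 and a summed level of 282 CPM without induction and 555 CPM at 15 days, and ENG was at 27.8 and 83.0 CPM there. PECAM1, the junctional adhesion molecule that helped choose the cells, was at 80.9 and 101 CPM.

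Within endothelial-marked cells few genes were far apart. Of 7109 at the floor, 2 (0.0281%) were at least 4-fold higher and 7 (0.0985%) lower, and 48 (0.675%) and 37 (0.52%) at 2-fold. The 2 higher genes were NEFL, a gene that marked neurons, and UNC5B-AS1. ESM1, KCNE3, CA2 and NQO1, given below, did not reach 4-fold with 5 CPM added. NEFM and the liver gene APOA2 were also among the 10 highest, and where their RNA came from was not tested. Under the alternatives in processing the 4-fold counts ran from 1 to 9 higher and from 4 to 10 lower, so which of them is larger depends on the setting. The median of all genes there was 0.08. ESM1, a proteoglycan made by tip cells that lead vessel sprouts, was at 196 (183 to 209) CPM without induction, against 669 (642 to 697) CPM at 15 days and 775 at 45 days, and 17.0% and 43.9% of thinned cells had a UMI of it (29.9% and 59.1% unthinned). Levels of ESM1 in the remaining cells were 1.93 and 2.09 CPM. KCNE3, a potassium channel subunit, was at 3.43 (1.92 to 5.65), 24.1 (19.2 to 29.8) and 20.1 CPM, and 33.3% of its UMIs in the 15-day library came from 5 cells. UNC5B-AS1, antisense to the netrin receptor gene UNC5B and with the same limit on strand as above, was at 13.0 (9.87 to 16.9), 97.1 (87.1 to 108) and 230.2 CPM. Both induced libraries were above the uninduced one for all 3 of these genes. CA2, a carbonic anhydrase, was at 23.5 and 105 CPM, and NQO1, a quinone reductase of the oxidative stress response, at 19 and 68.3 CPM.

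The 10 lowest genes in endothelial-marked cells were led by mesenchymal genes. DCN was at 89.1 (80.5 to 98.4) CPM without induction and 4.81 (2.80 to 7.71) CPM at 15 days, CXCL14, a chemokine, at 90.9 (82.2 to 100.3) and 5.95 (3.68 to 9.09) CPM, and LUM at 160.4 (149 to 173) and 28.3 (23.0 to 34.4) CPM. In the remaining cells of the same libraries DCN was at 639.6 and 90.3 CPM, and whether these transcripts came from the endothelial-marked cells themselves was not tested. Among genes of the VEGF, TIE and apelin systems over all cells 3 of 16 were at least 2-fold higher: ESM1, PGF, a VEGF relative, at 28.9 and 78.1 CPM, and ANGPT1 at 36.2 and 85.7 CPM. The receptor TEK was at 20.2 and 10.1 CPM. In Notch signalling HEY1 alone of 15 was at least 2-fold higher over all cells, at 43.2 (41.5 to 44.9) and 113 (110.2 to 116) CPM. Within endothelial-marked cells 0 of 13 Notch genes were at least 2-fold apart, beside 0.675% of all genes higher and 0.52% lower there. Of the HEY1 UMIs at 15 days 17.0% lay in endothelial-marked, 17.7% in neuron-marked and 62.0% in remaining cells.

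Cells of 2 further kinds were marked. Epithelial-marked barcodes were 6.64% (5.97 to 7.35) at 15 days and 5.59% (5.12 to 6.09) without induction. Their makeup differed. GABRP, a GABA receptor subunit of secretory epithelia, was at 1018 CPM (991 to 1046) in the uninduced and 96.8 CPM (87.0 to 107) in the 15-day epithelial-marked cells. CST1, a secreted cystatin, had 0 UMIs in such cells without induction and 1189 CPM at 15 days, with 45.7% of its UMIs in that library from 5 cells, and 0 CPM at 45 days. SLN, sarcolipin, was at 15.7 (14.7 to 16.8) CPM over all cells without induction and 3 UMIs at 15 days, a fold of 239.7 (81.7 to 1164), but 5 cells gave 57.5% of the uninduced UMIs. Of the keratins of stratified epithelium, KRT5 was higher at 15 days over all cells, at 10.8 and 43.3 CPM, and so was KRT17, at 80.0 and 218 CPM. KRT15 did not reach 2-fold. The simple-epithelium keratin KRT7 was lower, at 19.9 and 3.71 CPM. In all 2 of 14 epithelial genes at the floor were at least 2-fold higher, KRT5 and KRT17, and 3 lower, GABRP, KRT7 and SFN.

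Macrophage-marked barcodes were 1.93% (1.57 to 2.34, 100 cells) at 15 days and 0.85% (0.669 to 1.06, 75 cells) without induction, beside 0.996% at 45 days. Of 9 macrophage genes at the floor 5 were at least 2-fold higher and 0 lower, with C1QA, a complement chain, at 29.7 (28.3 to 31.2), 86.1 (83.4 to 88.8) and 44.2 CPM. After liver-like barcodes were set aside, 3 of 8 liver secretory genes at the floor over all cells were at least 2-fold higher and 0 lower, with a median of 0.86. Of all genes, 4.09% were at least 2-fold higher over all cells and 1.1% lower. ALB, AFP, APOA1, APOA2 and TTR, by which barcodes were set aside, belong to this list. Its count and median are bounded by that choice and support nothing about liver genes. ALB, whose UMIs per barcode the liver condition limits, was at 0.243 (0.133 to 0.408) CPM without induction, against 21.3 (20.0 to 22.7) CPM at 15 days and 0.159 at 45 days. At 15 days its level was 16.5 CPM in neuron-marked, 18.4 in endothelial-marked, 17.7 in epithelial-marked, 24.6 in macrophage-marked and 23.0 in remaining cells. Where this RNA came from was not tested. Chondrogenic genes gave SOX9, the master factor of cartilage, at 11.3 and 32.5 CPM and HAPLN1, a link protein, at 30.3 and 12.6 CPM as the members of 6 that were at least 2-fold apart, and 0 of 2 muscle genes were. Of 17 Schwann and glial markers 2 reached the floor, and FABP7, a fatty acid binder of glia, was at 33.8 and 11.4 CPM.

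Lists of energy use and stress differed in their distance from the all-gene median of 0.20 over all cells. Glycolysis lay farthest above it, followed by other hypoxia targets. Glycolysis gave 5 of 22 at least 2-fold higher over all cells, with a median of 0.81, but 1 of 17 and 0.45 in the remaining cells. ENO2, the neuronal enolase, was at 22.4 (21.2 to 23.7) and 168 (164 to 172) CPM over all cells, and PGK1, phosphoglycerate kinase, at 335 and 607 CPM. Of 19 other hypoxia targets 1 was at least 2-fold higher, ANKRD37 at 23.5 and 55.3 CPM, and 1 lower, LOX. The median of these targets was 0.60, and 0.51 in the remaining cells, where that of all genes was 0.17. Sterol synthesis had a median of 0.39 over all cells and -0.11 in the remaining cells, with 0 of 18 and 0 of 9 at least 2-fold apart. GDF15, a stress-induced cytokine, was the single p53 target of 14 at least 2-fold higher, at 8.67 (7.92 to 9.46), 45.0 (43.1 to 47.0) and 14.1 CPM. STC2 was the one ATF4 target of 16, at 6.69 and 18.8 CPM. Beside these counts of 1, the share of all genes at least 2-fold higher over all cells was 4.09%, and 1.1% were lower. Of 7 chemokine and inflammatory genes CXCL14 and the pentraxin PTX3 were lower, the latter at 74.4 and 10.5 CPM. No gene was 2-fold apart in either direction among 19 cell cycle genes (median -0.36), 24 nuclear and 12 mitochondrial respiratory chain genes, 18 endoplasmic reticulum chaperones and unfolded protein genes, 19 immediate early and heat shock genes, 16 interferon and antigen presentation genes, 24 cytosolic ribosomal protein genes (median -0.24) and 3 pluripotency genes.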

How the data were processed

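The deposited files hold raw UMI counts for each gene in each barcode. Per the submitters' processing notes they came from Cell Ranger 3.0.0 on GRCh38, and per the file headers from software version 3.0.1. Which annotation the genes were counted on is not given in the sources used here. Per the labels' protocols, organoids were dissociated with papain and captured with Chromium 3′ v3 reagents, which read transcript ends. Of 33538 gene identifiers 33456 were found in GENCODE 29, which gave coordinates (GRCh38, 1-based). UMIs were summed over kept barcodes per library, or per marked set, and scaled to CPM (Python 3.11.15, scipy 1.17.1). A sum of 0 was set at 3 UMIs for a fold. Doublets were not removed in the values reported. As an alternative, Scrublet scores (scanpy 1.11.5) removed 0.8% of barcodes per 1000. Shares of cells were compared after thinning each cell to 2000 UMIs. The calculation was tested on simulated data.

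Named genes were the 25 highest and 25 lowest ratios over all cells, the 15 and 15 in the remaining cells and the 10 and 10 in endothelial-marked cells. The 3 highest and 3 lowest members of each of 46 lists, members at 200 CPM or more, NEUROD1 and the genes that marked cells could also be named. A few genes that the rule named are not reported here. The comparison and the lists were chosen with earlier results of these data known, so the lists support nothing by themselves. Of the list symbols 2 were not matched.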

Additional observations from a re-analysis of the deposited data

How the results depend on the processing

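With 1 library per group none was left out in turn. No paired analysis was possible because there was 1 library in each group and the labels give no replicate numbers. Alternatives changed the pseudocount, the floor, the barcode filter, doublet removal, scaling, thinning and the score limit of the marked sets. The limits of 0.1% and 0.4% were chosen after seeing the data for the counts in remaining and endothelial-marked cells. The cause of each shift below was not tested.

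Over all cells the 91 genes at least 4-fold higher became 184 with 1 CPM added, 37 at a floor of 50 CPM, 38 with each cell weighted equally, 34 after thinning and 16 without neuron-marked cells. The 17 lower ones became 35 with 1 CPM added. In the remaining cells the 8 higher genes became 19 with 1 CPM added, 5 at the floor of 50 CPM, 4 with median-of-ratios scaling and 17 with liver-like barcodes kept. In endothelial-marked cells the 2 higher genes became 7 with 1 CPM added, 1 at the floor of 50 CPM, 5 with no floor, 5 with no barcode filter, 4 with a stricter one, 5 without doublets, 6 with equal weights, 9 after thinning and 4 at a limit of 0.1%, and the 7 lower ones became 4 at the floor of 50 CPM, 4 without doublets and 4 at a limit of 0.4%.

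The neuron-marked share at 15 days was 11.5% at a limit of 0.1%, 6.08% at 0.4%, 7.66% with the stricter filter and 5.99% after thinning, and without induction 0.249%, 0.0227% and, after thinning, 0. For endothelial-marked cells it was 9.16% at 0.1%, 7.91% with no filter and 5.78% with the stricter one at 15 days, and 6.97% at 0.1%, 5.11% at 0.4%, 7.10% with no filter, 4.74% with the stricter one and 5.25% without doublets in the uninduced library. Epithelial-marked cells made up 5.27% at 0.4%, 7.92% with liver-like barcodes and 5.58% after thinning at 15 days, and 6.30% at 0.1%, 3.6% at 0.4%, 4.95% with the stricter filter and 4.92% after thinning without induction. Macrophage-marked cells were 1.06% at 15 days with the stricter filter, and 1.29% with no filter and 0.418% with the stricter one without induction.

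Without neuron-marked cells the log2 ratios of MAP1B (-0.033), SCG2 (-0.22) and SCN3B (-0.017) turned negative, and with no floor the median of the Schwann and glial list in the remaining cells turned to 0.017. Of the gene counts under alternatives 48 stayed within 1.5 times and 22 did not, of list medians 682 stayed, 366 moved and 1 reversed, and of single-gene ratios 2578 stayed, 1681 moved and 3 reversed. Doublet removal took 8.18% of barcodes without induction and 4.77% at 15 days.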
